A study of Mus musculus with 4 samples.

Results

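The subject is where propionylation of histone H3 at lysine 23 (H3K23pr) lay in the hearts of mice on a control diet after sham surgery, the unstressed reference of the study. It was read from 1 ChIP-seq library made with an antibody against propionylated H3K23, for which the hearts of 3 male mice (C57Bl/6J, age 12 weeks) were pooled. These mice ate a diet with all essential amino acids, including the branched-chain ones (BCAA), from 4 days before the sham operation until the hearts were taken 1 week after it. The other libraries of the series, also 1 pool of 3 hearts each and of the same strain, sex and age, are used only as values set beside it: pressure overload by transverse aortic constriction (TAC) on the control diet, BCAA-free diet with sham surgery, and BCAA-free diet with TAC. All 29210 regions of the deposited table were used, regions in which a peak had been called in any of the 4 libraries and then merged. A peak had been called in control sham in 22513 of them (77.1%). The table names 17640 genes, and each gene was given the listed region whose middle lies nearest to its transcription start.

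Lysine propionylation is a short-chain acyl mark of histones, added from propionyl-CoA by acetyltransferases such as p300 and found with acetylation at active promoters. Propionyl-CoA arises in mitochondria from the catabolism of isoleucine, valine, methionine, threonine and odd-chain fatty acids, and the heart burns both branched-chain amino acids and fatty acids. The adult heart holds cardiomyocytes, which dominate its mass, beside endothelial cells, fibroblasts, mural cells and resident macrophages, and a library from whole hearts sums over all of them. A lower signal at a gene could come from fewer cells of a type or from less of the mark per cell, and these cannot be told apart.

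Each region carries an average signal (mean fragment density over the region, so that regions of different length can be compared) and a peak value (the highest density in it), both in the authors' deposited units. In control sham the average signal had a median of 6.89 (quartiles 5.30 and 9.04, range 1.10 to 48.7), and the peak value a median of 25, from 2 to 275. Length times average signal is proportional to the estimated number of sequenced tags, which summed to 11768794, with a median of 198 tags per region. The other libraries summed to between 11291348 and 11886699. Intervals below are 95% Poisson intervals from these estimated tags. They cover counting error only, since a group with 1 library has no replicate error, and no difference below was tested. No input library was used here, so local differences in chromatin recovery or mappability are part of every value. Across regions the average signal in control sham had a Spearman correlation of 0.830 with BCAA-free sham, 0.749 with BCAA-free TAC and 0.727 with control TAC. The TAC libraries had 0.872 with each other, and BCAA-free sham had 0.825 with BCAA-free TAC and 0.728 with control TAC. These are descriptions over 29210 regions that share their boundaries.

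Promoters with a CpG island carried the most mark. A region was placed in 1 of 5 classes by the deposited counts of promoters, genes and CpG islands in it. The 9037 regions with both a promoter and an island were 30.9% of regions and 41.4% of the covered bases, and held 49.9% of the estimated tags. Their median average signal was 8.83 (quartiles 7.12 and 11) and their median peak value 46. The 3483 promoter regions without an island stood lower, with a median of 6.74 and a peak value of 25. The 9587 regions with a listed gene but neither promoter nor island had 5.96. The 6389 regions with neither listed gene nor island had 5.94, hardly different in level. A region can list a gene that it does not overlap and omit one that it does. These classes therefore do not separate gene bodies from the space between genes. Islands away from promoters, 714 regions, had 7.56, between promoters with and without an island.

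The same order held for the share of regions with a peak call, which was 94.2% for island promoters (exact binomial 95% interval 93.7 to 94.7) and 65.7% for regions with neither gene nor island, beside 77.1% of all regions. Of the regions in the top decile by average signal (10% of all, from 11.5 upward), 1903 were island promoters, that is 65.1% of the top decile and 21.1% of the class. The top decile was reached by only 3.66% of regions with a listed gene but neither promoter nor island. It was reached by 4.15% of regions with neither listed gene nor island. The ratio of peak value to average also differed. Its median was 5.08 in island promoters, 3.68 in promoters without an island and 3.12 in regions with neither listed gene nor island. Median lengths in the same order were 7999, 6399 and 4999 bases. Peak value and length had a Spearman correlation of 0.575 across regions, and the part of length in this ratio was not tested. Signal in promoter regions grew with the number of islands, from a median of 8.64 with 1 island to 9.91 with 2 and 11.2 with 3 or more, and so did the median length, from 7199 to 14599 and 22799 bases. Promoters with and without an island also differed within a class of length. At 5 to 10 kb, island promoters had a median of 8.59 and the others 6.49, and at 20 to 50 kb the medians were 10.1 and 8.63. In the other libraries the island promoters had medians of 9.14 (control TAC), 9.12 (BCAA-free sham) and 8.93 (BCAA-free TAC), close to the value in control sham.

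**Figure D1:**
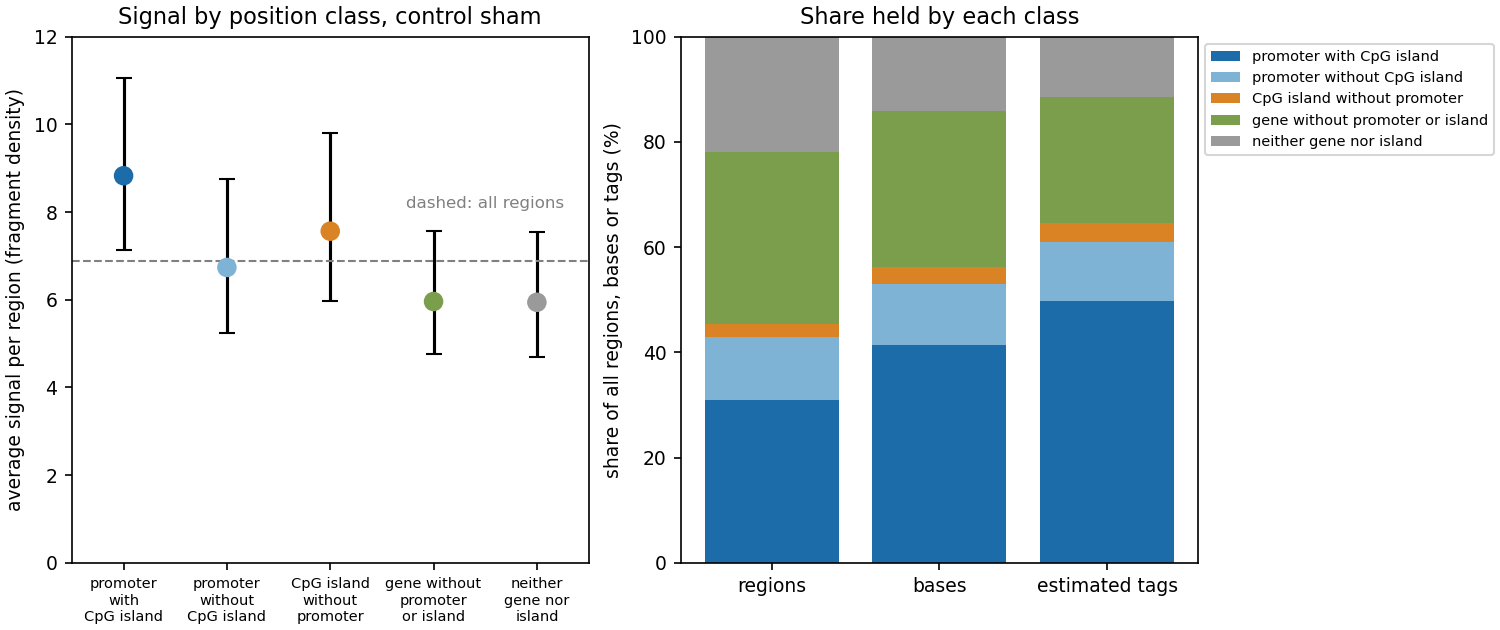
Left, the average signal (fragment density, linear axis from 0) of the 5 position classes in control sham, with points at the median over regions and bars from the lower to the upper quartile; the dashed line is the median of all regions, 6.89. Right, the share of all regions, of covered bases and of estimated tags held by each class, in percent. Island promoters are 30.9% of regions and hold 49.9% of tags.

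The base composition of the start sites went the same way, and the sequences below show the range. RefSeq promoter windows of the assembly GRCm38.p6, from 250 bases before to 50 bases after the start, were found for 12920 of the 17640 genes. Shown are Txnip (thioredoxin-interacting protein, the gene with the highest average signal), Supv3l1 (a mitochondrial RNA helicase, with a high signal in a short region at the start), Fabp3 (the fatty acid-binding protein of heart muscle), the sarcomere genes Ttn (titin) and Actc1 (cardiac actin), and Postn (periostin, a matrix protein of activated fibroblasts, low in this library). Each is printed 5′ to 3′ on the strand of the gene with its CpG dinucleotides in capitals.
Txnip (chr3:96557707-96558006, + strand): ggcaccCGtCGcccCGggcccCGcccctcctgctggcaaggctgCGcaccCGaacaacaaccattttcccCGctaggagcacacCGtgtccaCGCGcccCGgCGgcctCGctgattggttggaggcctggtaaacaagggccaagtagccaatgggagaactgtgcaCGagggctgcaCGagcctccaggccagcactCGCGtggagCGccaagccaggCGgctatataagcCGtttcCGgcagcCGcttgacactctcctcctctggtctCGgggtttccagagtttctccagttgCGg
Supv3l1 (chr10:62449689-62449988, - strand): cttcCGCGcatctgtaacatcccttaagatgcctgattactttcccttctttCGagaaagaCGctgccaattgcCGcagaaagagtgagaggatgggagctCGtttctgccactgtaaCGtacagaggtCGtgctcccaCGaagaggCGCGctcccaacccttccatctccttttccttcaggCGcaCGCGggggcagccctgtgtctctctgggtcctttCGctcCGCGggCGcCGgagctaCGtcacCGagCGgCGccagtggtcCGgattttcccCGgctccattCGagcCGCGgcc
Fabp3 (chr4:130308488-130308787, + strand): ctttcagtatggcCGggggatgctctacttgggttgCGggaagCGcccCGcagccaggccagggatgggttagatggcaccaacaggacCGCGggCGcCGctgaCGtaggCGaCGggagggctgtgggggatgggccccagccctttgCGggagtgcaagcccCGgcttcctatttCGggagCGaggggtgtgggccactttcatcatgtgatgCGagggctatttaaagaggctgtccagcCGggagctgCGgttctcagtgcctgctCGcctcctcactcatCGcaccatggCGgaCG
Ttn (chr2:76982498-76982797, - strand): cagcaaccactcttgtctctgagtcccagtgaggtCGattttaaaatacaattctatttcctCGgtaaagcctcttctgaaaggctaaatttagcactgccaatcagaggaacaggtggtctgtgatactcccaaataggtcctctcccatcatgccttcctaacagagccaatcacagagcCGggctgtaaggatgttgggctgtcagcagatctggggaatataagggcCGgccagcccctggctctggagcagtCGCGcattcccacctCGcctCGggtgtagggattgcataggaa
Actc1 (chr2:114052826-114053125, - strand): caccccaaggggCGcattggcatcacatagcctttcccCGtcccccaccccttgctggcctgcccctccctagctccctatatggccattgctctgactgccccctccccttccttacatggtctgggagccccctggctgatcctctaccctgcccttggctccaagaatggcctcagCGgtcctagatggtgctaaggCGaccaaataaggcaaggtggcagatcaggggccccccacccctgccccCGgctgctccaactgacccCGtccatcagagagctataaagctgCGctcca
Postn (chr3:54360857-54361156, + strand): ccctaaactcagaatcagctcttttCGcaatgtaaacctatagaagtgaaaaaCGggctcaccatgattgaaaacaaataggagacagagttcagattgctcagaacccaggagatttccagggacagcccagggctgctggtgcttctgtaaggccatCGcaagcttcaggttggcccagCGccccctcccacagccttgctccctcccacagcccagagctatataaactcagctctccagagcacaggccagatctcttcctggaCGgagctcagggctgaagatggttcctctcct

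The Txnip window holds 24 CpG, that of Supv3l1 28 and that of Fabp3 22, where Ttn has 8, Actc1 7 and Postn 5. Their average signals were 48.7, 31.5, 16.2, 15.4, 13.5 and 4.72 in the same order, so the sarcomere genes Ttn and Actc1 were among the highest 10% of genes (13.4 and above) with few CpG at the start. Over all genes with a window, the lowest decile by average signal had a median of 8 CpG, the second decile 15, the third 17 and the fourth 19. From the fifth decile on the median was 20 or 21, so that CpG number separated the weakly marked genes from the rest and did not separate the strongly marked genes from the middle. The Spearman correlation of average signal with CpG number was 0.174 across 12920 genes, a description of genes that partly share regions. The start lay inside the region used for 10324 of these genes. For the others, the window is set beside the signal of a region that does not contain the start.

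Motifs were searched on both strands of these windows, and overlaps between motifs were allowed. A TATA box (TATAAA) was in 12.5% of windows in the lowest decile and 7.12% in the highest, beside 8.14% of all windows. An E-box (CACGTG) was in 8.44% of the lowest and 11.5% of the highest decile, beside 9.47% of all. The cAMP response element (TGACGTCA) was in 1.86% and 3.79%, beside 2.95%. The AP-1 site (TGANTCA) was in 7.59% and 6.89%, above the 5.50% of all windows at both ends. The ERR site (TCAAGGTCA) was in 0.317% of all windows and the D-box (TTATGTAA) in 0.573%. Of the windows shown, those of Actc1 and Postn hold a TATA box and the others hold none of the 6 motifs. A match is a description of letters in the window. The E-box and the cAMP response element each hold a CpG, and the part of CpG number in their shares was not tested.

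**Figure D2:**
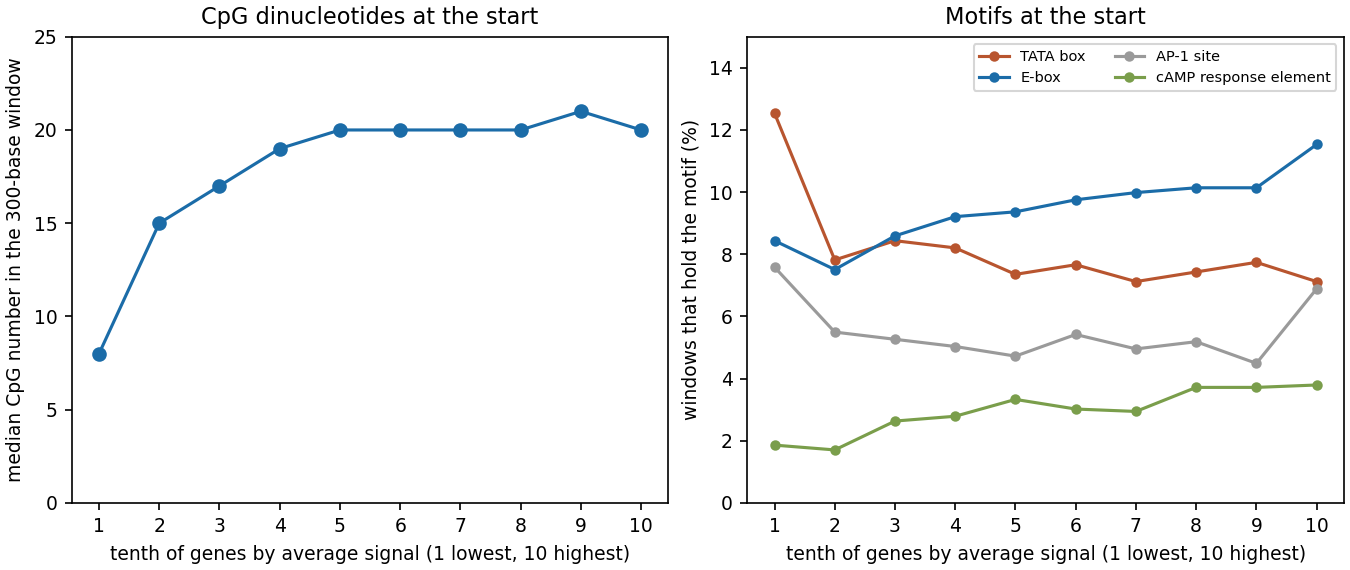
Genes with a RefSeq promoter window in deciles by average signal in control sham (1 lowest, 10 highest). Left, the median number of CpG in the 300-base window, which goes from 8 to 20. Right, the percentage of windows that hold each motif; the TATA box goes from 12.5% to 7.12% and the E-box from 8.44% to 11.5%.

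A small share of regions held much of the signal. Region boundaries were merged over the 4 libraries, so a length is not the extent of the mark in control sham alone. The 783 regions with the most tags (2.68%) held 25% of all estimated tags, and 3180 regions (10.9%) held 50%. The 526 regions over 50 kb were 1.80% of regions and held 18.4% of tags. Their median average signal was 10.9, against 6.09 for regions up to 2 kb, and 73.2% of them held a promoter. Average signal and length had a Spearman correlation of 0.313 across regions, so a ranking by length times average signal mostly follows length (0.923). Of the 100 regions highest by average signal, 31 were also among the 100 highest by peak value, 4 among the 100 longest and 20 among the 100 with the most tags. Only 3 regions stood in all of these top-100 sets.

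By average signal, the highest region was that of Txnip (chr3:96545400-96582999, mm10, 37.6 kb, also listing Gm15441 and Polr3gl). Txnip encodes an inhibitor of thioredoxin and of glucose uptake. It had 48.7 (interval 47.6 to 49.8) in control sham, 47.0 in BCAA-free sham, 39.0 in control TAC and 37.6 in BCAA-free TAC. Both sham libraries were thus above both TAC libraries. The regions and genes named here as highest were chosen by their control sham value. Such a choice favours a high place of control sham among the 4 libraries. The region of Lrrc8a, a subunit of the volume-regulated anion channel, and Phyhd1 followed with 44.2 (chr2:30234800-30272399). A short region on chromosome 9 (chr9:124422400-124427399) that lists the predicted genes 4930526I15Rik and Gm20783 had 42.1 over 4999 bases and 41.0, 45.9 and 37.8 in control TAC, BCAA-free sham and BCAA-free TAC. The region upstream of Fkbp5, which encodes a co-chaperone of the glucocorticoid receptor, had 37.7, and its middle lay 24387 bases upstream of the Fkbp5 start. It also lists E230001N04Rik and Armc12. Armc12 overlaps this region, whereas Fkbp5 lies 3851 bases from it. The region that contains the Fkbp5 start spans 83799 bases and averaged 12.8, with a peak value of 202.

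Gpihbp1, which encodes the protein that carries lipoprotein lipase across the capillary endothelium, had the highest signal of the genes whose region is centred within 2500 bases of the start, among 7938 genes after predicted genes and small RNAs were set aside. Its region (chr15:75589000-75602799, 13.8 kb) lists no other gene and holds no CpG island. It had 36.8 (interval 35.3 to 38.3) in control sham, 32.3 in BCAA-free sham, 24.8 in control TAC and 24.2 in BCAA-free TAC. Here too both sham libraries stood above both TAC libraries. Gpihbp1 was chosen by its control sham value, which favours a high place of that library. The next 9 genes of this ranking were Hif3a, a hypoxia-inducible factor subunit (32.4), Supv3l1 (31.5), Sde2 (31.0), Polr3d, a subunit of RNA polymerase III (27.9), the immediate early gene Ier2 (26.9), Ifitm5 (26.6, in a region with Ifitm1 and Ifitm2), Plekhg2 (26.4, in the region of the mRNA decay factor gene Zfp36), Shisa5 (26.0) and the antiproliferative gene Btg2 (25.9). At the other end of the same ranking, the lowest 5 were Tnfsf8 (2.18), the myeloid lectin gene Clec12a (2.47), the B cell gene Ms4a1 (2.47), Vnn1 (2.48, interval 1.12 to 4.73) and the chemokine receptor gene Cxcr3 (2.57), none with a peak call in control sham.

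By peak value the order was another one and circadian and stress genes led it. Nr1d2, which encodes the clock repressor REV-ERB beta, had the highest peak of all with 275 in a region of 9.80 kb whose average was 18. Its peak value was 240 in control TAC, 256 in BCAA-free sham and 216 in BCAA-free TAC. Other high peak values were those of the Eif4b region (256), Klf9, a Krüppel-like factor (238), and the region of Armc12 upstream of Fkbp5 (237). Cdkn1a, the cell cycle inhibitor p21, had 236, and Brd2, a bromodomain reader of acylated histones, 231. Among the 100 highest peaks, 91 were island promoters, beside 79 of the 100 highest averages and 70 of the 100 longest regions.

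The ranking by length, which is common to the 4 libraries, was led mostly by other genes. Ablim1, an actin-binding LIM protein, had 257 kb with an average of 15.6, and Tns1, the focal adhesion protein tensin, had 228 kb with 24.3 and the most estimated tags of any region, 24724. Nfia, a nuclear factor I gene, followed with 212 kb and 13.3 (no promoter in the region), Zbtb16, the transcription factor PLZF, with 201 kb and 23.3, and Tcf4 with 190 kb and 12.3 (also without a promoter). Col4a1 and Col4a2, the paired basement membrane collagen genes that share a promoter, lay in a region of 179 kb (chr8:11243200-11421999). It averaged 22.2 (interval 21.8 to 22.5) in control sham, 18.8 in control TAC, 16.8 in BCAA-free sham and 15.5 in BCAA-free TAC. Control sham was the highest of the 4. The region is also among those with the most control sham tags, a choice that favours a high place of that library. The region from the endothelial genes Notch1 and Egfl7 through Agpat2 and Fam69b covered 151 kb with an average of 21.1 and 14224 estimated tags, and that of Dusp1, a MAP kinase phosphatase, with Neurl1b and Ergic1, 187 kb with 20.9. The highest region that lists no gene (chr4:151897200-151913399) averaged 26.5 and lay 20321 bases from Dnajc11 and 35432 from Camta1.

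**Figure D3:**
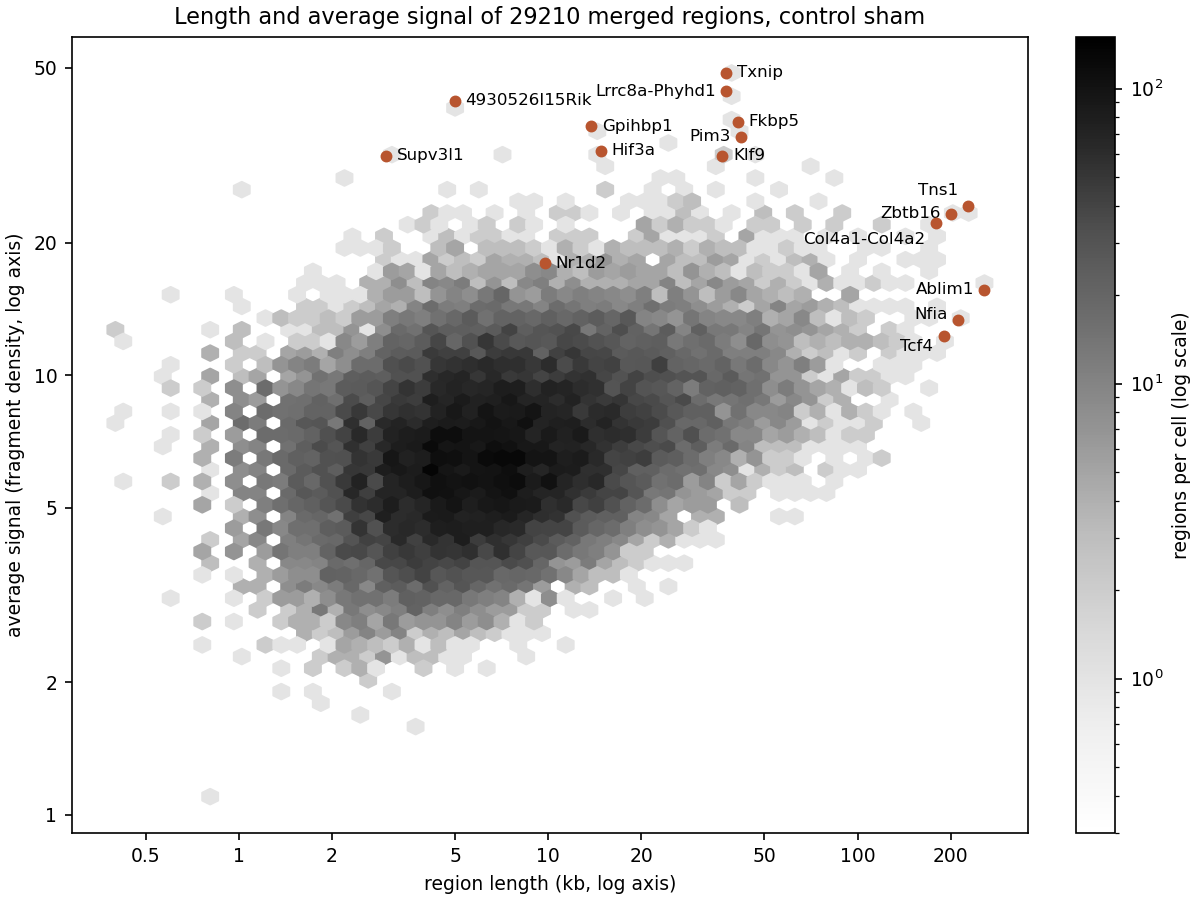
Each of the 29210 regions by length (kb, log axis) and average signal in control sham (fragment density, log axis), shaded by the number of regions per cell. Marked regions are among the top 10 by average signal, peak value or length; Txnip is highest at 48.7, and Ablim1 longest at 257 kb with 15.6.

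High signal and a peak call did not always go together. Of 2921 regions in the top decile, 37 (1.27%) had no call in control sham, and each was called in at least 1 other library. The highest of them, the region of Creld2 and the kinase gene Pim3, ranked sixth by average signal with 34.8 over 42.0 kb and was called in BCAA-free sham alone. The region of Fos, the immediate early transcription factor, averaged 18.1 and was likewise called in BCAA-free sham alone. The call is used here as a count only, and levels are read from the signal.

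Of 21896 protein-coding genes in the RefSeq table, 14879 (68.0%) were listed with a region, and large families of the nose and skin were mostly not. Of the olfactory receptor genes 36 of 1106 (3.25%) were listed, of the vomeronasal receptor genes 1 of 353, and of the beta-defensin genes 3 of 42. In contrast, 36 of 37 complex I subunit genes of the Nduf series, 73 of 75 mitochondrial ribosomal protein genes and 75 of 80 cytosolic ones were listed. Krüppel-like factors had the highest median of the 12 families counted, 13.3, with 8 of the 16 listed members in the top decile of genes. The start of 14017 genes (79.5%) lay inside a region. The table's distance is to the middle of a region, and 65.2% of nearest regions were centred downstream of the start. As many as 8119 genes shared their nearest region with another gene, and such genes have the same value.

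Gene lists were read against all 17640 genes, whose median was 8.46 (quartiles 6.60 and 10.8) and of which 10% lie in the top decile (13.4 and above) by construction, as do 10% in the bottom decile (5.24 and below). The nearest region had a peak call for 88.9% of genes and a CpG island for 72.8%. Of 25 lists of cell types and pathways, the immediate early genes (median 16.9) and the fatty acid oxidation genes (13.7) stood highest. Endothelial, sarcomere and energy genes stood above the median of all genes, and leukocyte, epicardial, neural and cell cycle genes stood below it. The lists differ in position class and region length, and the part of these in the order was not tested.

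**Figure D4:**
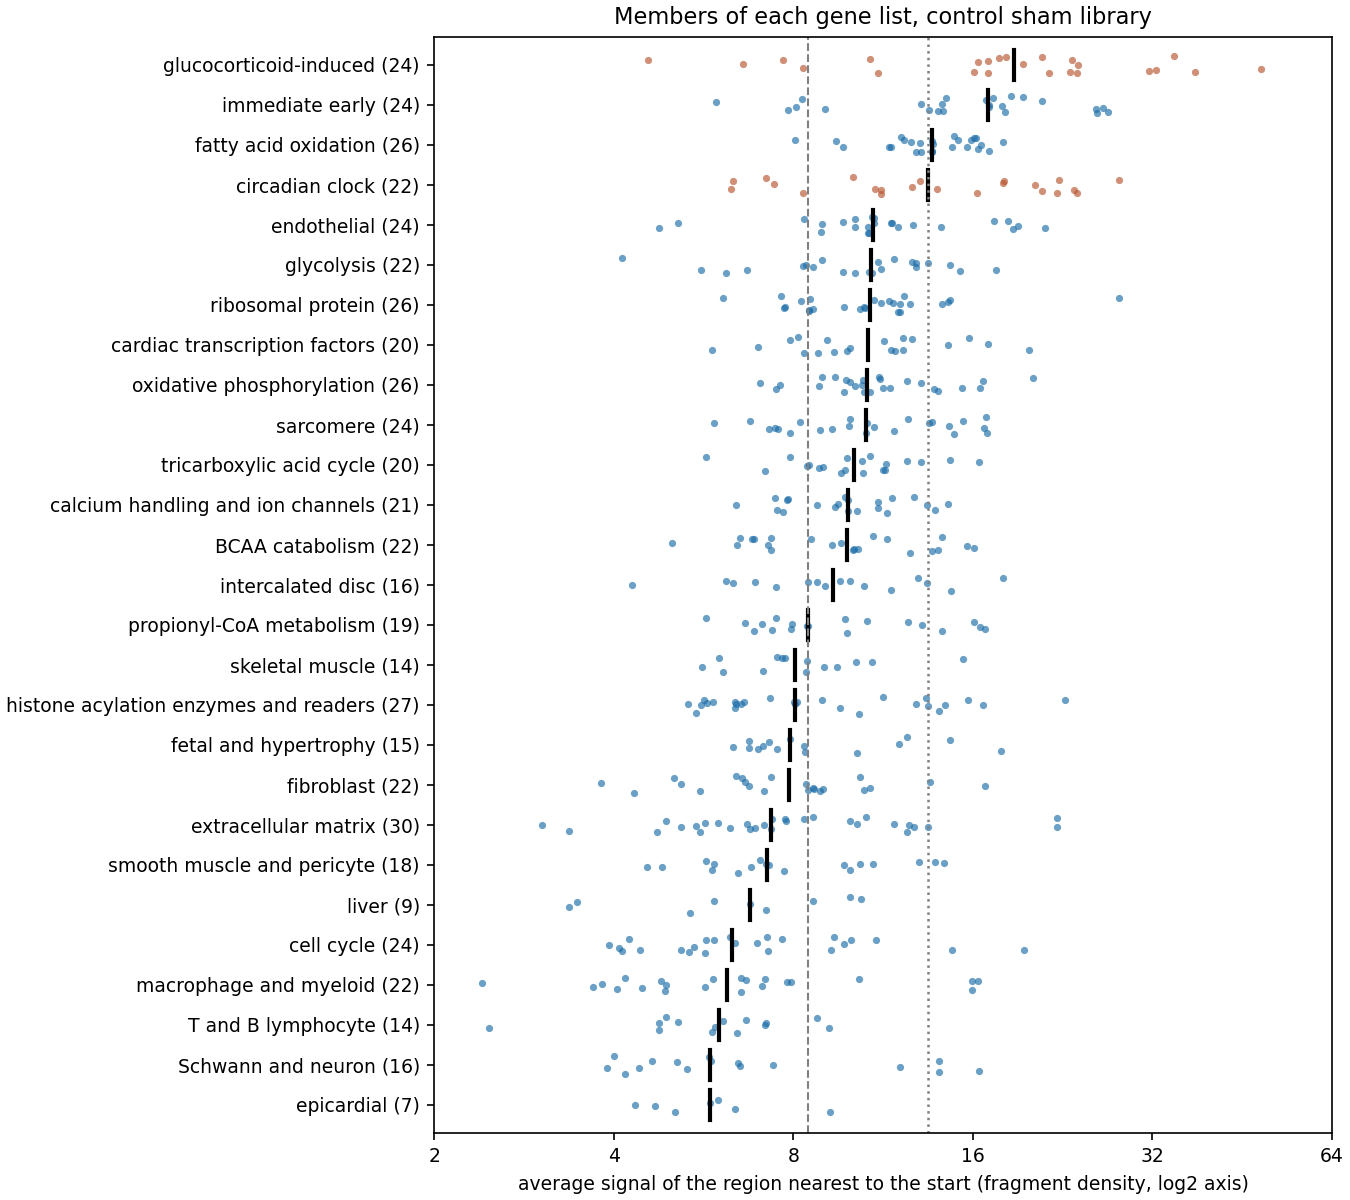
Average signal (fragment density, log2 axis) of the region nearest to the start for the measured members of each list in control sham, with the number of members in parentheses, points for genes and a black bar at the list median. The dashed line is the median of all genes, 8.46, and the dotted line the top-decile limit, 13.4; orange marks the lists added after the highest regions had been seen.

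Cardiomyocyte structural genes carried the mark at above the median level, with wide spread. Of 24 measured sarcomere genes, 17 were above the median of all genes, 8 were in the top decile (10% of all genes) and 0 in the bottom decile. Highest were the Z-disc genes Ldb3 (16.9) and Tcap (16.7) and the M-band gene Myom1 (16.8, in a region with the Myl12 genes). Ttn had 15.4 (interval 14.0 to 16.9) in a region at the start that lists no other gene (chr2:76979600-76985999), and 7.70, 12.8 and 10.01 in control TAC, BCAA-free sham and BCAA-free TAC. Control sham was the highest of the 4 libraries for Ttn. The other 3 regions of Ttn, inside the gene, had 8.04, 7.38 and 5.30. Regions with a listed gene but neither promoter nor island had quartiles of 4.76 and 7.56. The alpha myosin heavy chain gene Myh6, the main myosin of the adult mouse ventricle, had 14.9 (interval 14.1 to 15.7), with 8.28, 10.7 and 9.48 in the same other libraries. Myh7, the beta isoform of the fetal ventricle, had 7.27 in the region nearest to its start, and the Myh6 region lists it too. Actc1 had 13.5 (interval 12.6 to 14.5), with 6.81, 10.7 and 6.95. For Ttn, Myh6 and Actc1 alike, control sham was highest and BCAA-free sham came next. Troponin T (Tnnt2) had only 8.87 averaged over a region of 37.6 kb, and the lowest member, desmin (Des), 5.89, in a region centred 12745 bases upstream. The region that contains the Des start had 9.90. Likewise Tnni3 had 7.47 in its nearest region and 15.6 in the one that contains its start. The place of this list in the top decile rested on this library and on the average: by peak value 1 member was there, and by average signal 2 in control TAC, 1 in BCAA-free sham and 2 in BCAA-free TAC.

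Calcium handling and ion channel genes were nearer to the middle, with a median of 9.87, 15 of 21 above the median of all genes and 2 in the top decile. The gap junction gene Gja1 (14.5), junctophilin Jph2 (13.8) and the pacemaker channel gene Hcn2 (13.4) were highest. The calcium pump gene Atp2a2 (SERCA2) had 11.7 over a region of 102 kb, phospholamban (Pln), its inhibitor, 11.1 and the ryanodine receptor Ryr2 9.38 at the nearest of its 7 regions, which ranged from 5.52 to 9.88. Cacnb2, a calcium channel subunit, was lowest with 6.41. Of the intercalated disc genes, plakoglobin (Jup) had 18 and desmoglein 2 (Dsg2) 14.7, and the ankyrin gene Ank2 4.29. Sln, Kcnd2 and the atrial connexin gene Gja5 were listed with no region.

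Of 20 measured cardiac transcription factor genes, 15 were above the median of all genes and 4 in the top decile. Mef2d had 19.9, the fatty acid sensor Ppara 17.0 and Gata4 15.8, in a region of 88.4 kb. Nkx2-5 (11.4), Mef2a (12.2) and Tbx5 (8.80) were at lower levels, and Esrrg, an estrogen-related receptor, was lowest with 5.85. Ppara had 9.80 in control TAC, 13.8 in BCAA-free sham and 11 in BCAA-free TAC, with control sham again highest. Tbx20 and Hand1 were listed with no region, with the nearest regions 121 and 22.1 kb away.

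Genes of fatty acid oxidation were marked throughout the pathway. All 26 list members had a region, 25 were above the median of all genes, the largest share of the 25 lists, and 15 were in the top decile. The mitochondrial import enzymes Cpt2 (18, interval 16.7 to 19.3) and Cpt1a (17.1) and the uptake receptor Cd36 (16.5, interval 15.9 to 17.1) were highest. Cpt2 had 13.3, 16.3 and 14.4 in control TAC, BCAA-free sham and BCAA-free TAC, and Cd36 10.5, 16.4 and 10.5. The sham libraries were thus above the TAC libraries for both. Both genes were named for their control sham value, which favours a high place of that library. The short-chain dehydrogenase Acads was the lowest member with 8.06. The list median was 13.7 in control sham, 13.4 in BCAA-free sham, 10.4 in control TAC and 10.5 in BCAA-free TAC. Fabp3, whose start is printed above, had 16.2. In control TAC 3 members were in that library's top decile, and in BCAA-free TAC 4.

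The other energy pathways were above the median of all genes but below fatty acid oxidation. Oxidative phosphorylation genes had a median of 10.6 with 6 of 26 in the top decile, led by the complex III subunit Uqcrc1 (20.2), Ndufs1 (16.6) and Cox5b (16.5). Ndufa1, on the X chromosome, was lowest (7.03). Tricarboxylic acid cycle genes had a median of 10.1 with 2 of 20 in the top decile, Sdhc (16.4) and Idh3a (14.6), and glycolysis genes 10.8 with 4 of 22, led by Aldoa (17.5), Gapdh (15.2) and the muscle hexokinase Hk2 (14.6). Aldoc, the brain aldolase, was the lowest glycolytic gene with 4.13. Cytosolic ribosomal protein genes had a median of 10.7, and their highest, Rpl18 (28.1), lies in the region of the clock gene Dbp.

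The pathway of the mark's own donor was near the middle of all genes. Genes of propionyl-CoA metabolism had a median of 8.47, against 8.46 for all genes, with 4 of 19 in the top decile. Mut, the methylmalonyl-CoA mutase, had 16.8, Acss1, a mitochondrial short-chain acyl-CoA synthetase, 16.5 and Btd, biotinidase, 16.1. The propionyl-CoA carboxylase subunits differed at the nearest region: Pccb had 12.4 (interval 11.1 to 13.8) and Pcca 6.63 (interval 5.66 to 7.72). Pccb was also the higher of the pair in the other libraries. The values were 11.9 against 6.30 in control TAC, 13.3 against 6.64 in BCAA-free sham and 11.9 against 5.47 in BCAA-free TAC. A second Pcca region, centred 129171 bases downstream of the start, had 10.3 in control sham. BCAA catabolism genes had a median of 9.84 with 5 of 22 in the top decile, among them Bckdha (15.7), part of the enzyme complex for branched-chain ketoacids, and Bcat2 (13.7), the mitochondrial aminotransferase. Bcat1, the cytosolic aminotransferase, which few adult tissues use, was lowest with 5.0. The count of 5 BCAA catabolism genes was 2 by peak value, 2 in control TAC, 0 by length times average signal and 0 among the 8 alone in their region. Among histone acylation enzymes and readers the median was 8.05, with Brd2 (22.8), the acetyltransferase Kat7 (16.6) and p300 (Ep300, 15.7) highest, and Yeats2, which encodes a reader of acylated H3, lowest (5.33).

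Among the non-myocytes, endothelial genes stood highest, with a median of 10.9, 21 of 24 above the median of all genes, 6 in the top decile and 2 in the bottom decile. Egfl7 (21.1), endoglin (Eng, 19.0) and the junction protein gene Esam (18.7) led. Pecam1 had 12.7 (interval 12.2 to 13.2), with 12.0, 12.9 and 11.2 in control TAC, BCAA-free sham and BCAA-free TAC. Von Willebrand factor (Vwf), which marks venous and endocardial cells more than capillaries, was lowest with 4.75. By peak value 3 endothelial genes were in the top decile, and 1 of the 12 alone in their region was there by average signal. Fibroblast genes had a median of 7.87, with 2 of 22 in the top decile, Vim (16.8) and Dpep1 (13.6), and 4 in the bottom decile. Pdgfra had 8.87 (interval 8.33 to 9.42) and Tcf21 8.41 (interval 7.74 to 9.12), about the median of all genes. Both were lowest in control sham, with 8.96 and 11 in control TAC, 12.2 and 13.4 in BCAA-free sham, and 10.7 and 12.2 in BCAA-free TAC, where the control TAC value of Pdgfra lies within the counting interval of control sham. Smooth muscle and pericyte genes had 7.24, from Lmod1 (14.3, in the region of Timm17a) to the pericyte gene Rgs5 (4.54).

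Macrophage genes had a median of 6.20, and 9 of 22 were in the bottom decile of all genes. The 3 members in the top decile were Cd68 (16.4), in a region of 7 genes with the translation factor gene Eif4a1, and C1qa and C1qb (15.9), which share a region with C1qc and no other gene. That region had 26.5 in control TAC, 15.7 in BCAA-free sham and 23.2 in BCAA-free TAC, so the sham libraries were below the TAC libraries. Of the 8 macrophage genes alone in their region, 0 were in the top decile, and in control TAC 5 of all members were. Csf1r, the receptor for the growth factor of macrophages, had 6.67. Ccr2, a receptor of recruited monocytes, was lowest with 2.41 (interval 2.01 to 2.86) and 5.07, 2.46 and 3.96 in the other libraries. The Ccr2 region had no peak call in control sham and was included only through a call in another library, which favours a low place of control sham. The list median was 9.65 in control TAC, 5.74 in BCAA-free sham and 7.07 in BCAA-free TAC. T and B lymphocyte genes had 6.00 with 0 of 14 in the top decile and 5 in the bottom decile, and 6 of 20 were listed with no region. Schwann cell and neuron genes had a median of 5.79 with 3 of 16 in the top decile and 6 in the bottom decile, and epicardial genes 5.79 with 0 of 7 in the top decile and 3 in the bottom decile.

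Markers of tissues other than heart were read in the same way, beside the 68.0% of coding genes that have a region and the median of 8.46. Of 20 liver genes, 9 had a region, with a median of 6.78 and 0 in the top decile, and albumin (Alb) was among those without. Of 20 skeletal muscle genes, 14 had a region, about the share of all coding genes, with a median of 8.06, 1 in the top decile (Tnnt3, 15.4, in a region with Tnni2 and Lsp1) and 0 in the bottom decile. The fast myosin genes Myh1, Myh2 and Myh4 were among those without. Of 25 sarcomere genes, 24 had a region, and the atrial light chain gene Myl7 was the one without.

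Immediate early genes, which cells switch on within minutes of a stimulus, were the most strongly marked of the first 25 lists. Of 24 members, 20 were above the median of all genes, 18 were in the top decile and 0 in the bottom decile. Ier2 had 26.9 (interval 25.7 to 28.2), and 26.8, 26.9 and 26.0 in control TAC, BCAA-free sham and BCAA-free TAC. Zfp36 had 26.4 (26.6, 26.3 and 24.9), and Btg2 25.9 (23.9, 24.2 and 22.8). For Ier2 all other libraries lay within the counting interval of control sham. For Zfp36 (interval 25.6 to 27.2) BCAA-free TAC lay below it, and for Btg2 (interval 25.2 to 26.5) all other libraries did. The list median was 15.8 to 16.9 over the 4. The lowest members were Ier5 (5.93), Fosb (7.84), Egr2 (8.08) and Egr3 (8.27), all below the median of all genes, and for Ier5 and Fosb the nearest region is not the one that contains the start. Only 5 of the 24 were alone in their region.

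A pair of further lists was added because members were seen among the highest regions, so their counts describe that choice. Of 24 measured genes induced by glucocorticoids, 18 were in the top decile and the median was 18.8. Txnip, Fkbp5, Pim3, Hif3a and Klf9 were listed with regions among the 10 highest of the genome by average signal. For Fkbp5 that region lies upstream and overlaps Armc12, and the region that contains the Fkbp5 start averaged 12.8. Klf9 had 31.5 (interval 30.7 to 32.4), with 28.4, 32.7 and 28.4 in control TAC, BCAA-free sham and BCAA-free TAC. Other members were not high at the nearest region, among them Tsc22d3 (GILZ), on the X chromosome, with 6.59. The kinase gene Sgk1, a textbook target of the receptor, had 4.57 (interval 3.59 to 5.74) at the nearest of its 8 regions. That region had no peak call in control sham. The receptor gene itself, Nr3c1, had 7.68. Of 22 circadian clock genes, 11 were in the top decile. The highest were the output gene Dbp (28.1) and the repressor genes Per1 (23.9) and Nr1d1 (23.6). The activator genes Npas2 (7.41), Clock (7.21) and Arntl (BMAL1, 6.35) were below the median of all genes. An E-box was in 5 of the 17 circadian promoter windows (29.4%), 25% of the 20 glucocorticoid-induced windows and 21.1% of the 19 immediate early windows, beside 9.47% of all. The E-box itself holds a CpG, and these windows had median CpG numbers of 30, 22.5 and 23, beside 19 for all. The part of CpG number in the E-box shares was not tested. The sources used here do not give the hour at which hearts were taken.

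Cell cycle genes were low, and extracellular matrix and hypertrophy genes were spread around a level somewhat below the median of all genes. Cell cycle genes had a median of 6.32 with 2 of 24 in the top decile and 6 in the bottom decile, although all 24 had a CpG island in their nearest region. Bub1 had 3.93 (interval 2.79 to 5.38). Cdc6 (19.5) shares its region of 62.6 kb with the retinoic acid receptor gene Rara, and Mcm2 had 14.8 and Pcna 11. Extracellular matrix genes had 7.35 with 3 of 30 in the top decile and 5 in the bottom decile, and outside the Col4a1 and Col4a2 region the highest was Sparc (13.4). Postn had 4.72 (interval 4.02 to 5.51), with 7.96, 5.71 and 7.65 in control TAC, BCAA-free sham and BCAA-free TAC, and tenascin C (Tnc) 3.03 (interval 2.08 to 4.27), with 4.74, 3.17 and 6.03. Control sham was the lowest library for both, though BCAA-free sham lies within its counting interval for Tnc. The Tnc region had no peak call in control sham and was included only through a call in another library. Such inclusion favours a low place of control sham. Of the hypertrophy genes, Nppa, Nppb and Acta1 were listed with no region, and the 15 others had a median of 7.91 with 2 in the top decile and 0 in the bottom decile, led by the matricellular genes Cyr61 (17.8) and Ctgf (14.7).

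**Figure D5:**
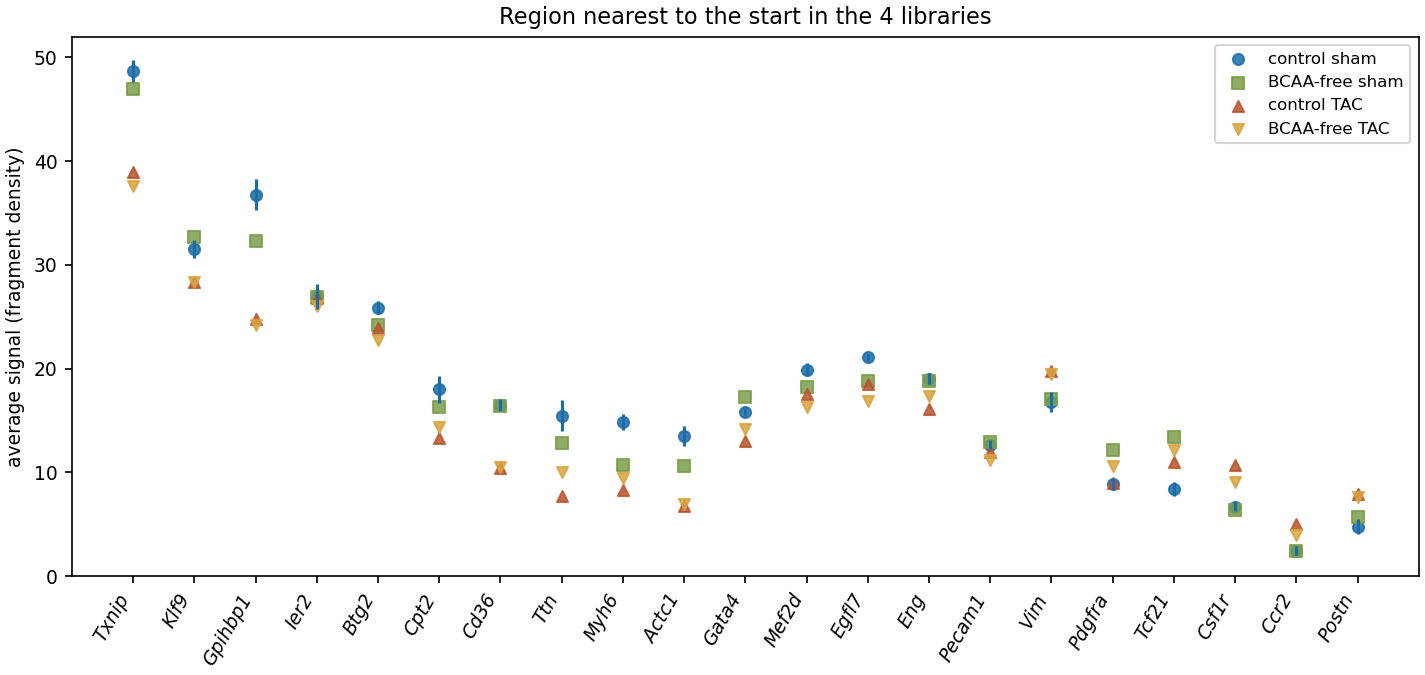
Average signal (fragment density, linear axis from 0) of the region nearest to the start of selected genes in the 4 libraries, 1 point per library, with the 95% counting interval of control sham as a blue bar. Txnip, Gpihbp1, Ttn, Myh6 and Actc1 were higher in control sham than in both TAC libraries, Ier2 was at 26.0 to 26.9 in all 4, and Csf1r, Ccr2 and Postn were lower in control sham than in both TAC libraries. The Ccr2 region had no peak call in control sham and was included only through a call in another library. Txnip and Gpihbp1 were chosen by their control sham value, which favours a high place of that library.

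The X chromosome, present as a single copy in these males, carried less signal than any autosome. Its 815 regions had a median of 5.80, where the autosomes had 6.56 to 7.29, and its island promoters had 7.21 against 8.35 to 9.42. Regions on X were also shorter, with a median of 3399 bases against 5999 to 7399, while the share with a peak call, 76.8%, lay within the 74.6% to 80.2% of the autosomes.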

How the data were processed

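Each of the 4 groups has 1 library, made from 3 pooled hearts; groups were taken from the treatment labels. Per the submitters' processing notes, BWA, MACS2 and the mm10 build were used, without versions; their roles, and the scaling between libraries, are not given in the sources used here. The authors deposited 1 table of merged regions with, per the file headers, an average and a peak signal (fragment density) and a 0 or 1 for a peak call per library; these calls were used as counts of regions only. The deposited larger tag number of a library pair, a signal-derived count, was checked to equal average signal times length divided by 224 (largest difference 1.82e-12), and tags were estimated by that relation. The authors' deposited log2 ratios, gene names, promoter counts, CpG islands and distances come from the same table; the ratios were not used.

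Python 3.11.15 with pandas 2.3.3, numpy 2.4.6 and scipy 1.17.1 was used. A promoter, gene or island count above 0 defined the classes. No filter was applied. The top decile is the highest 10% of genes or regions. Of 17640 gene names, 17022 were matched to a symbol or a single synonym in a RefSeq table of GRCm38.p6, the build of mm10, and promoter sequences are from RefSeq with that build. No test was made between groups or lists, since 1 library has no replicate. Steps were tested on simulated regions. Regions, genes and lists were chosen with earlier results of these data known, and 2 lists were added after the highest regions had been seen. Named genes are the 10 highest near a start (middle at most 2500 bases away), the 10 highest, longest and most tag-rich regions, the 3 highest and 1 lowest of each list, and a set of heart genes; others were chosen after their values were seen, and some genes that the rule selects are not reported here. Alternatives were the peak value, another library, regions with a peak call, regions of at least 100 tags, genes alone in their region or near the start, length times average signal, and the region containing the start.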

Additional observations from a re-analysis of the deposited data

How the results depend on the processing

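No paired analysis was possible because each group has 1 library. With 1 library, pool-to-pool spread is unknown, and counting error does not stand in for it; estimated tags (median 198 per region) limit short regions most. Counts of members in the top decile moved by more than 1.5 times in 22 of 79 alternatives for the main lists and classes; the cause was not tested. Regions with neither listed gene nor island numbered 265, and 141 by peak value or 175 in control TAC. Regions with a listed gene but neither promoter nor island numbered 351, and 214 in BCAA-free TAC. Sarcomere genes numbered 8, and 1 by peak value, 2 in control TAC, 1 in BCAA-free sham, 2 in BCAA-free TAC, 1 among 6 genes alone in their region and 5 among 10 near the start. Endothelial genes numbered 6, and 3 by peak value and 1 among 12 alone. Macrophage genes numbered 3, and 1 by peak value, 5 in control TAC, 0 alone and 0 near the start. Fatty acid oxidation genes numbered 15, and 3 in control TAC, 4 in BCAA-free TAC, 7 among 10 near the start and 9 by length times average signal. Immediate early genes numbered 18, and 4 among 5 alone and 8 among 9 near the start. Of the 100 highest regions, 64 were also among the 100 highest in BCAA-free TAC. For the other 22 lists, 75 of 220 counts moved. Over all settings, immediate early genes had 50% to 88.9% of members in the top decile and fatty acid oxidation genes 11.5% to 84.6%.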
